A study of Rattus norvegicus with 12 samples.

Results

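The 9 oligodendrocyte lineage genes Olig1, Olig2, Sox10, Pdgfra, Cspg4, Mbp, Mobp, Mag and Mog were followed in densely plated rat hippocampal neuron cultures. They were found by gene name among the annotations of a whole rat genome array, regardless of signal, and were read by 13 of its 41012 probes, or 9 of 35716 gene names. The hippocampi came from E18.5 Sprague-Dawley rat fetuses, and the cultures were treated at 10 to 13 days in vitro for 48 h. Tetrodotoxin (TTX, 0.5 to 1 μM), which blocks voltage-gated sodium channels and with them action potentials, was given to one group, and bicuculline (BC, 20 μM), which blocks GABA-A receptors and raises activity, to another. The third group received vehicle alone (CTL), which the sample labels give as 0.1% DMSO whereas the study's account of the arrays gives 0.1% H2O. Each group comprised 4 RNA samples, each labeled with Cy3 and hybridized to 1 array. Whether the 4 samples of a group stemmed from different cultures is stated neither in the labels nor in the methods, so the p-values weigh only the scatter among these samples, and that scatter may be technical.

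Oligodendrocytes are the cells that wrap axons of the central nervous system in myelin. Their progenitors carry the platelet-derived growth factor receptor Pdgfra and the proteoglycan Cspg4 (NG2), divide in response to platelet-derived growth factor, and depend on the transcription factors Olig1, Olig2 and Sox10. On differentiation they lose Pdgfra and Cspg4 and accumulate the myelin proteins Mbp, Mobp, Mag and Mog, of which Mog is among the last to appear. Neuronal firing is known to influence both the division of progenitors and myelination. In cultures of mixed cells the messenger RNA of a marker reflects both how many cells carry it and how much each holds, and fewer cells of a type cannot be told apart here from less RNA per cell.

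Each probe is a 60-base oligonucleotide, placed by the array's annotation on the rn4 assembly. The following sequences, 5′ to 3′ in the sense of the transcript, belong to probes on which the results below turn. Of Pdgfra probe 1 and Mog probe 2 only the first 30 bases are given. The capitals mark bases that are also covered, on the opposite strand, by a probe for the expressed sequence tag AA925099.
Pdgfra probe 1, chr14:35369738-35369767, minus strand: TATCTGTTGCTATGTAGACTTGGAGAATAC
Mag probe 1, chr1:85954956-85955015, minus strand: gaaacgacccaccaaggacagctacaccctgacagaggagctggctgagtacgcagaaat
Olig2 probe 1, chr11:31206908-31206967, plus strand: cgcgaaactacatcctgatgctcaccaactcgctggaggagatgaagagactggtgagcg
Mog probe 1, chr20:1610278-1610337, plus strand: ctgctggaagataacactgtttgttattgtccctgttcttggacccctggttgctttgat
Mog probe 2, chr20:1611776-1611805, plus strand: aggaccttgagaagcaagggtcgagaactg
The probes of Mog are separated by 1438 bases, and those of Olig2 and Olig1, which are neighboring genes, by 39245 bases.

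Signals are given as log2 of the processed signal, quantile-normalized over the 12 arrays. Because probes differ in how strongly they bind, differences are taken between groups for one probe, and the signals of different probes do not rank the messenger RNA of their genes. All 9 genes were well above background, by the scanner software's own test, on all 4 CTL arrays and all 4 BC arrays. In TTX 8 of the 9 were, and the exception was Mag, which missed on the array of TTX replicate 3. These are the brightest probe of each gene. Mbp was read by 2 probes and Mog by 2, all of them above background on the 12 arrays, whereas Mobp probe 2 was above background on 5 arrays and Mobp probe 3 on 2. Messenger RNA of progenitor and of myelin genes was thus detected in all 3 groups, which does not show the cells it came from. By the study's immunostaining nearly all cells carried the neuronal marker NeuN and few the glial marker GFAP. It reports no count of oligodendrocytes. Between 74.1 and 78.1% of the 41012 probes were well above background per array, and the median processed signal of an array lay between 105.4 and 147.9. The median over the 12 arrays was 65.3 units of processed signal for Pdgfra, 32.4 for Mag and 83.4 for Olig2. It was 75.1 for Mog probe 2 and 33.3 for Mbp probe 2. All these probes were dim. No probe of the 9 genes was saturated on any array.

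The first comparison asked whether blocking action potentials changed the oligodendrocyte lineage genes. With a gene called at an FDR under 0.05 and a change of at least 1.5-fold, 1 of the 9 was called in TTX against CTL, which was Pdgfra, and it fell. Over all 35713 genes tested, 4.17% were called, 1.48% as higher and 2.69% as lower. The median log2 difference was 0.06 over the 9 genes and 0.01 over all genes. The single call thus stood among 8 genes that were not called and whose differences lay on both sides of 0.

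Pdgfra, the receptor for platelet-derived growth factor on progenitors, read 6.03, 6.32, 6.18 and 5.93 in the 4 CTL samples. In TTX it read 5.63, 5.13, 5.26 and 5.28. All TTX samples lay below all CTL samples. Pdgfra was the only member without overlap between these groups, which held for 15.6% of all genes. The difference was -0.79 on the log2 scale (SE 0.167, 95% interval -1.16 to -0.42, FDR = 0.0127), or 1.73-fold lower in TTX, and it was negative on each of the 4 slides, from -0.90 to -0.67. Its size depended on the treatment of background, since it was -0.36 with a normexp correction, -0.39 without background correction and -0.39 in the deposited log2 values, each below the 1.5-fold threshold with an FDR of 0.0104 to 0.0149. The FDR was 0.0675 when the arrays of a group that shared a set of slides were taken as correlated and 0.0856 when they were averaged. The probe for AA925099, which shares 47 bases of its target with the Pdgfra probe on the other strand, was not above background on any array and read 1.24 to 1.45 in all 12 samples.

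**Figure D1:**
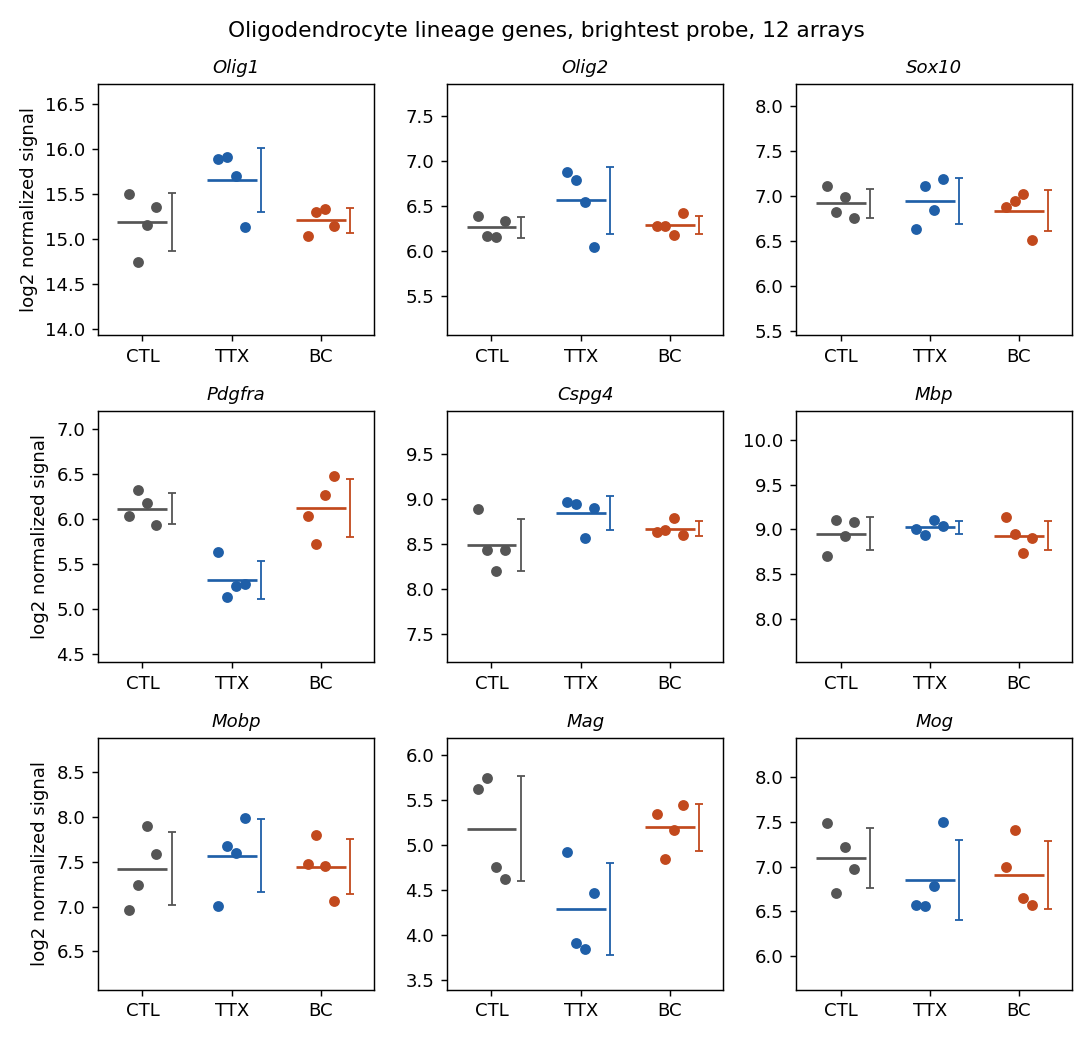
Log2 normalized signal of the brightest probe of each of the 9 genes in the CTL, TTX and BC groups. Points are single samples, horizontal lines are group means and bars are 1 SD (n = 4), and each vertical axis spans the same range of log2 units around the gene's own level, so that only Pdgfra shows TTX samples entirely apart from CTL.

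The other progenitor marker, Cspg4, was not called. It read 8.89, 8.43, 8.20 and 8.43 in CTL and 8.96, 8.94, 8.56 and 8.90 in TTX. The groups overlapped, with TTX higher on all 4 slides. The difference was 0.35 (95% interval 0.04 to 0.66, FDR = 0.163).

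The transcription factors Olig1 and Olig2, which specify the lineage, both lay higher in 3 of the 4 TTX samples. Olig1 read 15.50, 14.75, 15.16 and 15.36 in CTL and 15.89, 15.91, 15.70 and 15.14 in TTX. Olig2 read 6.39, 6.17, 6.16 and 6.34 in CTL and 6.88, 6.79, 6.55 and 6.05 in TTX. In both genes TTX replicate 4 was the lowest TTX sample and lay within or below the CTL samples, while the other TTX samples were above every CTL sample. The difference was 0.47 (95% interval 0.04 to 0.90, FDR = 0.184) for Olig1 and 0.30 (95% interval -0.05 to 0.65, FDR = 0.322) for Olig2, and neither was called. Without TTX replicate 4 Olig1 reached 0.64 and was called (FDR = 0.0411), and Olig2 reached 0.47 with an FDR of 0.019, which is below the 1.5-fold threshold. Sox10, which drives myelin gene transcription together with OLIG factors, averaged 6.92 ± 0.16 in CTL and 6.94 ± 0.26 in TTX (SD, n = 4), a difference of 0.02 (95% interval -0.31 to 0.35).

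Among the myelin genes, Mag, an adhesion protein of the innermost myelin layer that faces the axon, had the largest difference but also the widest spread. It read 5.62, 5.74, 4.75 and 4.62 in CTL. In TTX it read 4.92, 3.91, 3.84 and 4.47. The lowest CTL samples lay below the highest TTX sample, so the groups overlapped, although TTX was lower on all 4 slides. The difference of -0.90 (SE 0.311, 95% interval -1.58 to -0.21) was not called (FDR = 0.106). Within CTL the 2 samples on the first set of slides lay 1.00 above those on the second, and with the slide set as a block Mag was called at the same difference (FDR = 0.0404), as it was with the slide as a block (FDR = 0.0479). With the arrays of a slide set averaged it was not called (FDR = 0.151), and it shrank to between -0.30 and -0.28 with the other treatments of background.

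None of the other myelin genes was called. Mbp, the protein that compacts the myelin membrane, averaged 8.96 ± 0.19 in CTL and 9.02 ± 0.07 in TTX, a difference of 0.06 (95% interval -0.17 to 0.30). Mobp, a small basic protein of compact myelin, differed by 0.14 (95% interval -0.41 to 0.70), and Mog, a glycoprotein of the outer myelin surface, by -0.24 (95% interval -0.81 to 0.33) on its brighter probe. The second Mbp probe gave -0.21 and the dim Mobp probes -0.61 and 0.39, none of them called. These intervals reached past 1.5-fold upward for Mobp and downward for Mog, and stayed within it for Mbp. At an unadjusted p under 0.05, 4 of the 9 genes passed in TTX against CTL (Pdgfra, Mag, Cspg4 and Olig1), beside 21.5% of all genes.

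**Figure D2:**
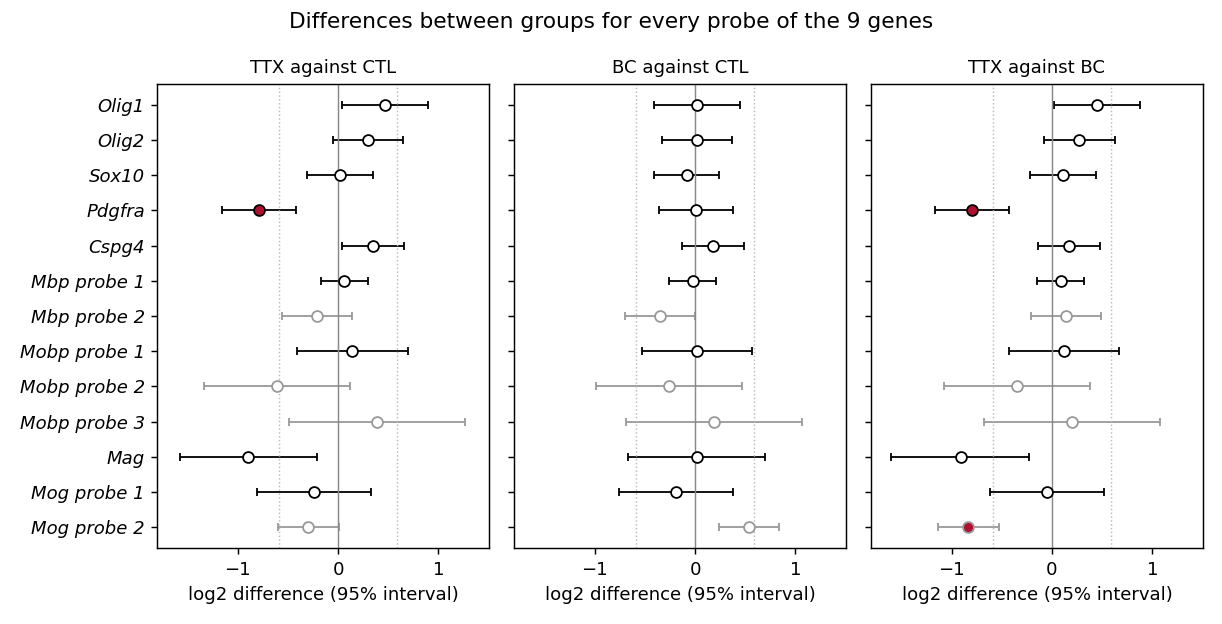
Log2 differences between groups with 95% intervals for all 13 probes of the 9 genes, black for the brightest probe of a gene and gray for the others. Filled red points were called, and dotted lines mark the 1.5-fold threshold in each direction. Filled points occur for Pdgfra in TTX against CTL and against BC, and for Mog probe 2 in TTX against BC.

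The next comparison asked whether raised activity did the opposite. By their brightest probes, none of the 9 genes was called in BC against CTL by limma, and none passed an unadjusted p under 0.05, whereas 3.6% of all genes were called, 2.14% as higher and 1.47% as lower, and 19% passed the unadjusted threshold. None was called under any alternative, a test without moderated variances included. Their log2 differences ran from -0.19 for Mog to 0.18 for Cspg4, with a median of 0.02 against -0.01 over all genes. Pdgfra read 6.03, 5.72, 6.27 and 6.48 in BC, which surrounded the CTL samples, and differed by 0.01 (95% interval -0.36 to 0.38). Olig1 and Olig2 each differed by 0.02 and Sox10 by -0.08, with intervals of -0.41 to 0.45, -0.33 to 0.37 and -0.41 to 0.24. Mag read 5.34, 4.84, 5.17 and 5.44 in BC and differed by 0.02 (95% interval -0.67 to 0.70). For Pdgfra, Olig1, Olig2, Sox10, Cspg4, Mbp and Mobp the interval stayed within 1.5-fold in both directions, and for Mag and Mog it reached past it. Of the further probes, Mbp probe 2 differed by -0.35 (unadjusted p = 0.0499, FDR = 0.258) and Mobp probes 2 and 3 by -0.26 and 0.19, none called. Mog probe 2, described below, differed by 0.54 without overlap (FDR = 0.0363). That lay below 1.5-fold, and the probe was called under 4 of 26 alternatives.

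TTX and BC were also compared with each other, an estimate that shares the TTX and BC samples with the comparisons above. By the brightest probes, Pdgfra was again the single member called, at -0.80 (95% interval -1.17 to -0.43, FDR = 0.00505), and again the only one without overlap. It, too, shrank to between -0.39 and -0.34 with the other treatments of background, below 1.5-fold. The dimmer Mog probe 2 was also called without overlap, at -0.84 (FDR = 0.00118), and is described below. In this comparison 10.9% of all genes were called, 4.68% as higher and 6.19% as lower in TTX, and 25.8% did not overlap. At an unadjusted p under 0.05, 3 of the 9 genes passed (Pdgfra, Mag and Olig1), beside 32.6% of all genes. Mag was -0.91 (95% interval -1.60 to -0.23, FDR = 0.056), lower on all 4 slides and just above the threshold. It was called under 9 of 27 alternatives and shrank to between -0.30 and -0.27 with the other treatments of background. The highest TTX sample of Mag, at 4.92, lay above the lowest BC sample, at 4.84. Olig1 was 0.45 higher in TTX (FDR = 0.128) and the remaining 6 genes differed by -0.05 to 0.27.

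Mog was the member with a call on 1 of its probes and none on the other. Probe 1 read 7.48, 6.70, 7.22 and 6.97 in CTL, 6.57, 6.56, 6.78 and 7.50 in TTX, and 6.99, 7.41, 6.65 and 6.57 in BC. Its groups overlapped throughout. Probe 2 read 6.36, 6.41, 6.06 and 6.16 in CTL, 6.20, 6.02, 5.80 and 5.79 in TTX, and 6.60, 6.57, 6.99 and 6.99 in BC. On this probe all BC samples lay above all CTL and all TTX samples, as 13.6% of all genes had no overlap between BC and CTL. TTX was 0.84 below BC on the log2 scale, or 1.79-fold lower (95% interval of the difference -1.14 to -0.53, FDR = 0.00118), with a range of -0.97 to -0.78 over the 4 slides, and BC was 0.54 above CTL (95% interval 0.24 to 0.84, FDR = 0.0363), a 1.45-fold difference under the fold threshold. Without CTL replicate 2, BC replicate 1 or BC replicate 2 that difference was 0.60 to 0.61 and was called. TTX against CTL was -0.30 (FDR = 0.242). On probe 1 the corresponding differences were -0.05, -0.19 and -0.24, none called. As for Pdgfra, the difference of probe 2 between TTX and BC shrank to between -0.52 and -0.46 with the other treatments of background and then stayed below 1.5-fold.

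**Figure D3:**
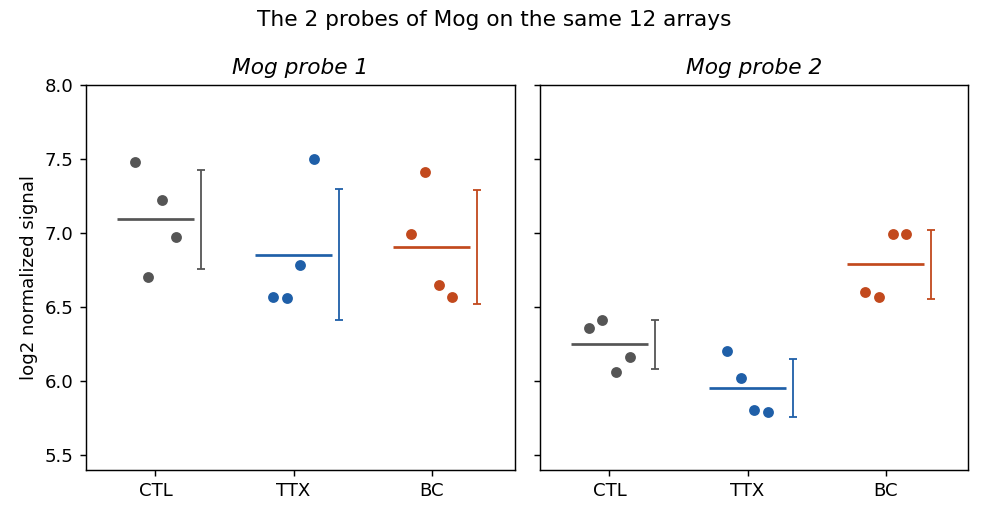
Log2 normalized signal of the 2 probes of Mog in the same 12 samples, with points for samples, lines for group means and bars for 1 SD (n = 4). BC samples lie above all others on probe 2 and within the range of the others on probe 1.

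The members did not vary as a block across the 12 arrays. Of the 36 pairs of genes, 12 had a Pearson correlation above 0, and the median was -0.24. The highest were 0.85 between Olig1 and Olig2 and 0.84 between Pdgfra and Mag, while Olig1 was correlated at -0.64 with Pdgfra and at -0.61 with Mag. These correlations are descriptions over 12 arrays that share treatment groups and slides. With the centered profiles of the 8 members above background on all arrays averaged, the most similar among 24537 other genes were the unnamed probe A_44_P738731 (r = 0.928), the olfactory receptor Or5b102 (0.917), Tm4sf4 (0.914), Iqcf1 (0.905) and the expressed sequence tag AA851754 (0.902). Genes of the oligodendrocyte lists, ligands and receptors included, were left out of this search, so it does not show whether they resemble the members. None of the genes found is among the other lists of cell type genes used here.

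Further genes of the lineage were examined as 2 lists, 13 measured genes of progenitors and early oligodendrocytes and 24 of myelin and mature cells. Neu4 and Sox8 in the first list and Ermn, Klk6 and Opalin in the second were not above background on any array. In TTX against CTL 2 of these genes rose and 1 fell, in BC against CTL 1 rose and 2 fell, and in TTX against BC 5 were higher and 3 lower in TTX, where 4.17%, 3.6% and 10.9% of all genes were called. The medians for TTX against CTL were 0.33 over the early list and 0.00 over the myelin list, and for BC against CTL 0.18 and -0.05.

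Bcas1, a gene of newly differentiating oligodendrocytes, read 8.60, 8.65, 8.25 and 8.85 in CTL and 9.55, 9.62, 9.75 and 9.60 in TTX, without overlap. The difference was 1.04 (SE 0.113, FDR = 0.00027), with 1.24 on its other probe. Tf, transferrin, an iron carrier that oligodendrocytes make, rose by 0.72 (SE 0.13, FDR = 0.00594), which fell below 1.5-fold with the other treatments of background and lost its call once same-group arrays sharing a slide set were treated as correlated (FDR = 0.0647). In BC Bcas1 and Tf differed from CTL by 0.19 and 0.02, not called, and the other Bcas1 probe by -0.31, also not called.

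C1ql1, a secreted synapse-organizing protein made by progenitors and by some neurons, moved in opposite directions. It read 8.30, 8.21, 8.48 and 8.25 in CTL, 7.69, 7.51, 7.61 and 7.52 in TTX, and 9.29, 9.39, 9.98 and 9.64 in BC. The 3 groups were fully separated. It fell by 0.73 on the log2 scale in TTX (FDR = 0.00699) and rose by 1.26 in BC (FDR = 0.000296).

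In BC the genes that fell were Ndrg1 (-1.25, SE 0.0997, FDR = 5.4e-05), needed by Schwann cells to keep their myelin and widely induced by low oxygen, with -1.36 on its other probe, and Pllp, plasmolipin, a membrane protein of myelin (-0.89, SE 0.164, FDR = 0.00734). Pllp read 6.58, 6.64, 6.52 and 6.30 in CTL and 5.49, 5.15, 5.82 and 6.03 in BC. It fell short of 1.5-fold under the other treatments of background and did not pass a test without moderated variances (FDR = 0.0764). With the arrays of a slide set averaged, no gene of any kind was called in BC against CTL, and in TTX against CTL Bcas1 was still called while C1ql1 (FDR = 0.128) and Tf (FDR = 0.0591) were not. Ptprz1 and Bcan, a receptor phosphatase and a proteoglycan shared with astrocytes, were not called against CTL and differed by 0.33 and 0.42 in TTX and by 0.12 and -0.18 in BC. Qdpr, an enzyme that regenerates tetrahydrobiopterin, was not called either, with -0.01 and 0.03. Cnp, an early myelin enzyme named here after its values were seen, differed by 0.30 in TTX (FDR = 0.339) and -0.10 in BC. Omg and Apod, also named after their values were seen, were the genes lower in TTX than in BC beside C1ql1, at -0.97 and -0.69. Among the genes called higher in TTX than in BC was Bcan, at 0.60 (FDR = 0.0263), a call lost under 11 of 27 alternatives.

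**Figure D4:**
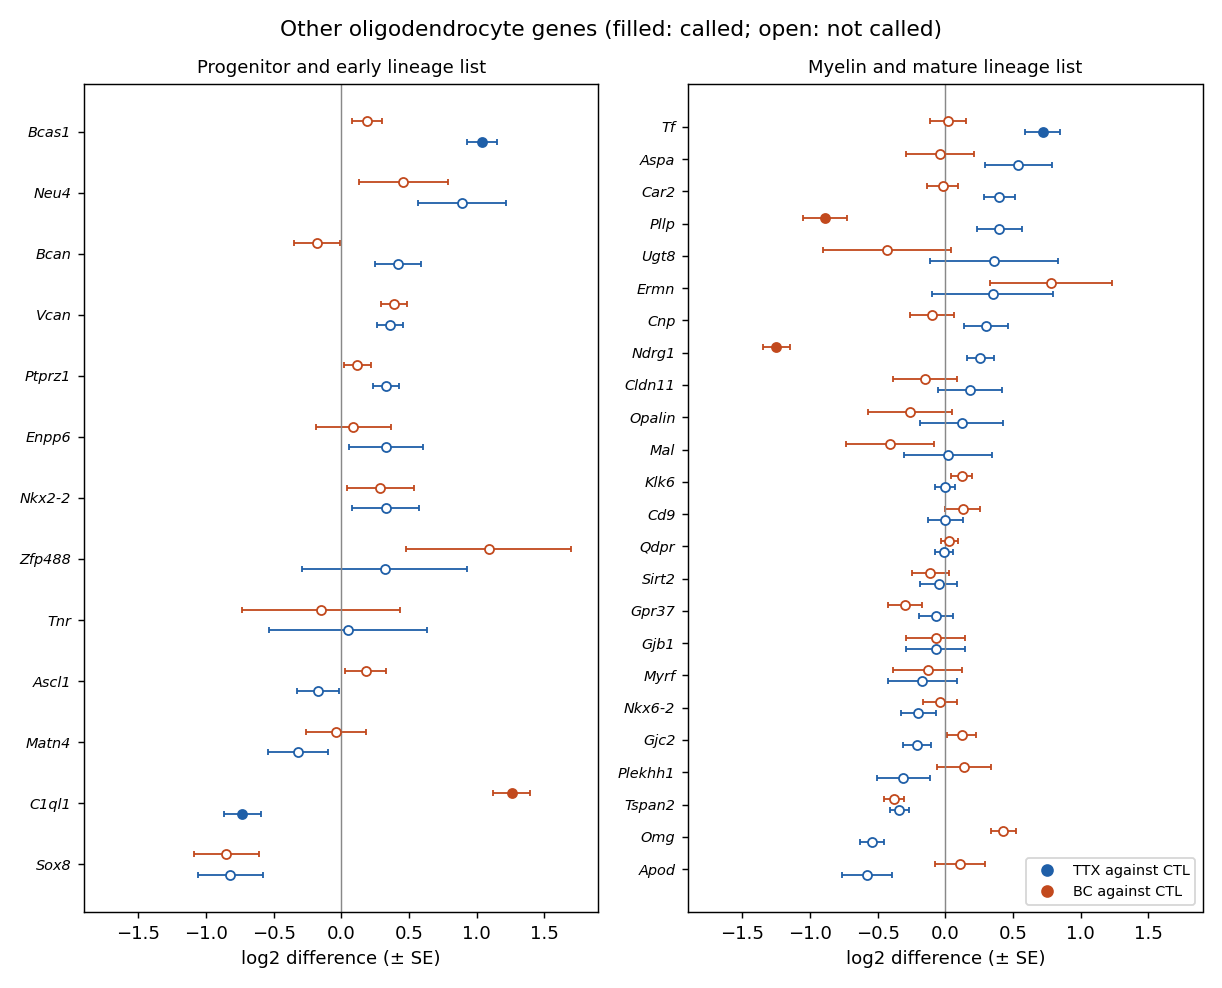
Log2 differences from CTL with their SE for 13 genes of progenitors and early oligodendrocytes and 24 of myelin and mature cells, TTX in blue and BC in orange, ordered by the difference in TTX. Filled points were called: Bcas1 and Tf above 0 and C1ql1 below it for TTX, C1ql1 above 0 and Pllp and Ndrg1 below it for BC.

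Of 20 ligands and receptors that act on the lineage, limma called 1 in TTX against CTL and none in BC against CTL. Over all genes 4.17% and 3.6% were called. At an unadjusted p under 0.05, 8 passed in TTX and 7 in BC, beside 21.5% and 19% of all genes. The one called was Erbb4, a neuregulin receptor that GABAergic neurons also carry, which read 6.55, 6.59, 6.37 and 6.34 in CTL and 5.79, 5.89, 5.47 and 5.79 in TTX, a fall of 0.73 on the log2 scale (FDR = 0.00148). It, too, came to -0.39 to -0.36 and below 1.5-fold with the other treatments of background, and its FDR was 0.0511 with the arrays of a slide set averaged. Pdgfa, the ligand of Pdgfra, named here for that role, differed by -0.16 in TTX (SE 0.0638, FDR = 0.175) and 0.14 in BC (FDR = 0.248). Between TTX and BC, 2 of the 20 were called higher in TTX, Jag1 (0.60) and Il6st (1.05), and 2 lower, Erbb4 (-0.75) and Igf1 (-0.65). Over all genes 4.68% were called higher in TTX than in BC and 6.19% lower. The other Igf1 probes differed by -0.59 to 0.33, with 1 of them called. Jag1, Il6st and Igf1 were named after their values were seen. Bmp4 and Erbb3 were not above background on any array.

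Several members are shared with other cell types, and genes of those cells moved in the same comparisons. Pdgfra and Cspg4 also mark fibroblasts and mural cells. Of 15 vascular, mural and fibroblast genes, 3 fell in TTX and none rose, beside 2.69% of all genes called lower and 1.48% higher. They were Lum (-0.98, FDR = 0.000169) and Dcn (-0.62, FDR = 0.00167), matrix proteoglycans of fibroblasts, and Rgs5, a pericyte gene above background on 2 CTL arrays and no TTX array. In BC 3 rose and 1 fell, beside 2.14% of all genes called higher and 1.47% lower. Lum and Dcn rose by 0.85 and 0.87, Cldn5, an endothelial gene above background on 2 of 4 CTL arrays, rose, and Abcc9, a mural cell gene, fell. The fibrillar collagens Col1a1, Col1a2 and Col3a1, named after their values were seen, differed by 0.03, 0.23 and -0.17 in TTX and by -0.09, 1.67 and -0.15 in BC, none called. For Col1a2 in BC the SE was 0.824, and its other probe differed by 0.15. The median of the list was 0.00 in TTX and 0.12 in BC. Pdgfra stood at 0.01 in BC. The summed signal of the 15 genes was 14197 to 19736 in CTL, 11193 to 16208 in TTX and 21991 to 30742 in BC. This sum is weighted to bright probes, among them Lum (mean 12.35 in CTL and 13.20 in BC) and Dcn (11.44 and 12.30). It is not a measure of cell number. Kcnj8 and Pecam1 were not above background on any array, and Pdgfrb, which marks mural cells, differed by 0.32 in TTX (FDR = 0.252). The part of these cells in the Pdgfra result was not tested.

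Sox10 and Mag are also made by Schwann cells. Of 7 measured Schwann cell genes, Sox10 included, Ngfr fell by 1.81 on the log2 scale in TTX and rose by 1.95 in BC, and Egr2 fell by 1.62 in BC. No others were called against CTL in this list, beside 4.17% of all genes called in TTX and 3.6% in BC. Ngfr is also found in neurons, and Egr2 is an activity-regulated gene of neurons. Cdh19 was not above background on any array. The summed signal of this list was 3994 to 5114 in CTL, 4775 to 5592 in TTX and 4109 to 4897 in BC. Most of this sum came from Pmp22 (mean 11.05 in CTL and 11.20 in TTX) and Egr2 (10.89 and 11.29).

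Of 14 astrocyte genes 1 rose in TTX, the potassium channel Kcnj10 (0.94, FDR = 0.0133), which oligodendrocytes carry too. In TTX 4 passed an unadjusted p under 0.05, beside 21.5% of all genes, and the list median was 0.23 against 0.01 over all genes. None was called in BC, and none passed an unadjusted p under 0.05 there. Over all genes 4.17% were called in TTX and 3.6% in BC. The summed astrocyte signal, again weighted to bright probes, was 136398 to 185444 in CTL, 148941 to 206944 in TTX and 143210 to 166603 in BC. None of 11 microglia genes and none of 7 proliferation genes was called against CTL. At an unadjusted p under 0.05, 2 microglia genes passed in each comparison and 0 and 4 proliferation genes in TTX and BC. Of all genes, 21.5% passed in TTX and 19% in BC. Aif1 and Itgam, both microglial, were not above background on any array. Of 9 neuronal genes, 2 were called in TTX, where 2.69% of all genes were called lower. They were Gad1 and Gad2, the enzymes of GABA synthesis, which fell by 1.56 and 1.33. None was called in BC, where 4 passed an unadjusted p under 0.05.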

How the data were processed

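The authors deposited scanner intensities of 12 one-color arrays, from which Feature Extraction 9.5.1.1 had, per the file headers, removed background and a spatial trend within each array. They also deposited quantile-normalized log2 values, used as an alternative. BC replicate 2 has 1131 empty values there.

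Processed signals were taken to log2, outlier spots were left out, and arrays were quantile-normalized with limma 3.58.1 in R 4.3.3. limma fitted 1 mean per group over the 12 arrays (eBayes), with Benjamini-Hochberg FDR over all 41012 probes. The brightest probe stands for a gene, which is called at FDR under 0.05 and at least 1.5-fold. The steps were tested on simulated data. Probe names were updated through the GRCr8 gene table. The number of arrays limits the precision.

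Each of 4 slides held 1 array of each group. After group means were removed, same-number TTX and CTL arrays had correlations of 0.281 to 0.379, against -0.347 to -0.244 for BC and CTL and -0.376 to -0.283 for TTX and BC. Arrays of the same slide set (2 slides each) correlated at 0.201 to 0.41 and of different sets at -0.388 to -0.203. The sets were slides 1 and 3 against slides 2 and 4, a grouping that the sample labels do not name. These correlations do not show what the sets stand for. The numbers were not taken as pairs.

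Members and lists were chosen with earlier results of these data known. Named are all members with every probe, up to 4 called genes per list and comparison with CTL, and the 2 genes with the brightest probes in each further oligodendrocyte list. The 5 genes outside the oligodendrocyte lists that were most like the members' mean profile are named too. Others are marked, and some genes are not reported here. Alternatives covered background correction, normalization, a filter on dim probes, slide and replicate blocks, the samples fitted, the variance model, a test without moderated variances, the fold threshold, the choice of probe and each array left out.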

Additional observations from a re-analysis of the deposited data

Results flagged for a closer look

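Among the members, Dixon's ratio singled out 2 of 39 sets of 4 samples, where chance alone gives about 1 in 20. Cspg4 in TTX replicate 3 read 8.56 on the log2 scale, below the 8.90 to 8.96 of the other TTX samples. Mobp probe 2 in CTL replicate 1 read 4.44, above the 3.32 to 3.41 of the other CTL samples, on a probe above background on 5 of 12 arrays. Among the other named genes Tf read 6.16 in TTX replicate 2 (others 6.44 to 6.49), Qdpr 15.43 in CTL replicate 1 (15.50 to 15.51), Lum 12.07 in CTL replicate 4 (12.43 to 12.46) and Cldn5 5.71 in BC replicate 3 (5.15 to 5.20). In all, 6 of 96 sets were singled out.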

How the results depend on the processing

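Pdgfra was the member called in TTX against CTL (count 1). The count was 0 with normexp correction, without background correction, with the deposited log2 values, with slide sets averaged and with the arrays of a slide set as a random block, and 2, with Mag, with the slide or the slide set as a block. In TTX against BC the count of 1 became 0 with the first 3 of these settings and 2, with Mag, with the 75th percentile, only probes above background, the slide or the slide set as a block, only the 2 groups compared, and trend and robust moderation. With each array left out it ranged from 1 to 2 in both comparisons. Olig1 was the second gene without TTX replicate 4, and Mag in TTX against BC without CTL replicate 2, CTL replicate 4 or TTX replicate 1. In BC against CTL the count was 0 throughout. The 3 other oligodendrocyte genes called in TTX became 1 with slide sets averaged and 6 with no fold threshold, the 3 called in BC became 0 and 6, and the 8 called in TTX against BC became 5 with normexp correction, without background correction and with the deposited log2 values.

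The replicate block left every one of these counts as it was, at 1, 0 and 1 for the members and 3, 3 and 8 for the other genes. Of 1764 values of single genes or probes under an alternative, 45 lost and 17 gained a call. In 64, called in neither fit, the sign changed, all with a main difference of at most 0.26 in size. The slide-set settings and the random block were chosen after seeing the data, except the averaging. Over all genes, the 1491 calls in TTX and 1287 in BC became 438 and 0 with slide sets averaged, 786 and 673 with normexp, and 3469 and 2890 with no fold threshold. Dim probes such as Pdgfra and Mag limit what can be said of size.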
